A study of Homo sapiens with 8 samples.

Results

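Transcript levels were examined for 10 genes that make, activate or inactivate androgens, the steroid hormones that drive prostate cancer growth. The genes were SRD5A1, SRD5A2, SRD5A3, HSD3B1, HSD3B2, HSD17B2, HSD17B3, HSD17B4, HSD17B11 and STS, each found by its symbol, and together they were 10 of the 57603 entries of the table. The RNA came from 22Rv1 cells, an established human line of castration-resistant prostate cancer (CRPC) that expresses a gastrointestinal transcriptome. All 4 groups carried a transgene, either GFP as a control or HNF4G, a gastrointestinal transcription factor of the nuclear receptor family. In both lines it was driven by a murine stem cell virus promoter. Each line was kept in medium with serum and received the solvent DMSO or 25 nM of the BET bromodomain inhibitor ABBV-075, also called mivebresib, for 24 hours. Groups are named by transgene and treatment, as in HNF4G-DMSO, and held 2 libraries each. The comparisons ask what BET inhibition did to these transcripts with and without exogenous HNF4G. Whether libraries of 1 group stem from different cultures is not stated in the labels, and the p-values then cover only the spread seen between them, which can be technical.

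Castration lowers androgen made by the testis, and tumor cells can then depend on precursors from the adrenal gland. Steroid sulfatase (STS) frees dehydroepiandrosterone from its sulfate, 3β-hydroxysteroid dehydrogenases (HSD3B1 and HSD3B2) turn it into androstenedione, 17β-hydroxysteroid dehydrogenases interconvert weak and strong androgens, and 5α-reductases (SRD5A1 and SRD5A2) make dihydrotestosterone, the strongest natural androgen. Other 17β-hydroxysteroid dehydrogenases oxidize androgens back to weaker forms, and glucuronidation clears them from the cell.

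The values are normalized counts, the reads of a gene divided by 1 size factor per library. Recovered totals ran from 31508275 to 40262678 reads per library. In the check of the transgene, GFP cells held 1088 and 993 normalized counts of HNF4G with DMSO and 206 and 213 with ABBV-075, and HNF4G cells held 10109 and 12104 with DMSO and 43972 and 34116 with ABBV-075. All 4 libraries labelled HNF4G were thus above all 4 labelled GFP. Of 9 prostate luminal markers, 9 had a mean of at least 10 normalized counts, against 0 of 3 basal, 0 of 3 endothelial, 1 of 5 immune and 0 of 9 markers of adrenal and gonadal steroid-producing cells. The summed level of the last list ran from 5.51 to 14.4 normalized counts per library, with LHCGR, CYP11A1, CYP11B1 and MC2R at 0 in all 8. Of 6 stromal markers, 5 had a mean of at least 10. The 6 summed to a mean of 1590 with DMSO and 422 with ABBV-075 in GFP cells, and 1297 and 369 in HNF4G cells, most of it from LUM. Hepatocyte markers, 2 of 5 with a mean of at least 10, summed to 3114 to 28666 per library, most of it from ALB. What part these markers have in the results was not tested. In a bulk sample, fewer expressing cells and less RNA per cell cannot be told apart.

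HNF4G-DMSO number 2 and HNF4G-ABBV-075 number 1 stood apart in base composition. The mean GC content of the transcripts behind their reads was 46.29% and 46.28%, against 47.38% to 47.86% in the other 6 libraries. Calls of the enzymes and results of some pathway lists are also given below without both, while single pathway genes are given with all libraries only.

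Only 5 of the 10 enzymes were expressed at a level that could be compared. HSD17B4, HSD17B11, SRD5A3, SRD5A1 and STS had a mean of at least 10 normalized counts and were tested, while SRD5A2, HSD3B1, HSD3B2, HSD17B2 and HSD17B3 were not. Per kilobase of the reference transcript, HSD17B4 was highest with a mean of 4801 normalized counts per kb over the 8 libraries (range 4407 to 5398). HSD17B11 followed with 1562 (1241 to 2029), SRD5A3 with 521 (417 to 612), SRD5A1 with 280 (242 to 318) and STS with 51.7 (37.1 to 61.9). This order held in 8 of 8 libraries, and no 2 neighbours overlapped in their ranges. The closest neighbours were SRD5A3 and SRD5A1, whose ratio of levels per kb ran from 1.31 to 2.48.

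The other 5 enzymes gave few or no reads. HSD17B2 (ENSG00000086696, chr16:82035004-82098534 of GRCh38, plus strand), which oxidizes testosterone to androstenedione, had 0 reads in all 8 libraries. A count of 0 allows up to 3 reads, or 0.0745 to 0.0952 CPM at the depths of these libraries, and covers counting error only. HSD3B1 (ENSG00000203857, chr1:119507198-119515054, plus strand), the peripheral 3β-hydroxysteroid dehydrogenase, gave 4 reads in all, 3 in HNF4G-DMSO number 1 and 1 in HNF4G-ABBV-075 number 2. The enzyme for this step in adrenal and gonad, HSD3B2 (ENSG00000203859, chr1:119414931-119423035, plus strand), gave 15 reads in all. GFP cells held 0 and 1 of them with DMSO and 2 and 4 with ABBV-075, and HNF4G cells 1 and 0 with DMSO and 7 and 0 with ABBV-075. The 2 genes are close copies, so reads they share may have been lost or split in counting. SRD5A2 (ENSG00000277893, chr2:31522480-31580938, minus strand), the main 5α-reductase of normal prostate, gave 9 reads, 2 and 4 in GFP-DMSO, 1 and 2 in HNF4G-ABBV-075 and 0 in the other 4 libraries. HSD17B3 (ENSG00000130948, chr9:96235306-96302176, minus strand), which makes testosterone from androstenedione in the testis, gave 42 reads. It was seen in every library, with 8 and 5 reads under DMSO and 2 and 7 under the drug in GFP cells, and 6 and 3 under DMSO and 3 and 8 under the drug in HNF4G cells. The counts of HSD17B3 overlapped in all 4 groups, and a difference was not detectable at this depth.

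**Figure D1:**
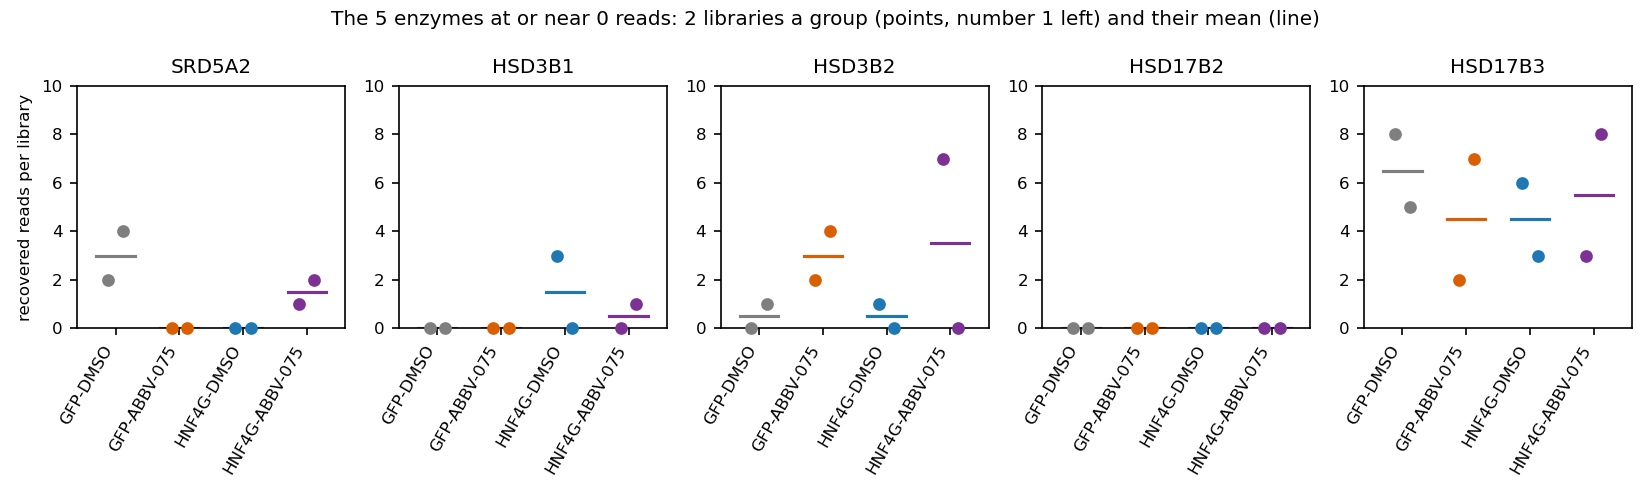
Recovered reads per library (vertical axis) of the 5 enzymes that were too low to test, by group, with 1 point per library and a line at the mean of 2. No library holds more than 8 reads of any of them, and HSD17B2 lies at 0 in all 8 libraries.

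Steroid sulfatase, the entry point for sulfated precursors, was the lowest of the 5 expressed enzymes. STS (ENSG00000101846, chrX:7147237-7804358, plus strand) held 405 and 372 normalized counts in GFP cells with DMSO and 302 and 295 with ABBV-075. HNF4G cells held 377 and 410 with DMSO and 335 and 246 with ABBV-075. The libraries treated with ABBV-075 were below the DMSO libraries in both lines, without overlap. With 2 libraries a group such a separation can easily arise by chance. Its share over all genes is not given here, so here and below it is a description only. The log2 difference was -0.38 ± 0.16 (SE, 95% interval -0.75 to 0.00, adjusted p = 0.11, limma) in GFP cells and -0.45 ± 0.16 (-0.83 to -0.08, adjusted p = 0.07) in HNF4G cells, and neither passed the threshold of 0.05. Without HNF4G-ABBV-075 number 1 the difference in HNF4G cells was -0.67 (adjusted p = 0.0093, limma), and without number 2 it was -0.23 (adjusted p = 0.25). In GFP cells it was -0.21 (adjusted p = 0.44) after quantile scaling. HNF4G and GFP cells overlapped under DMSO and under ABBV-075, with log2 differences of 0.02 and -0.06. STS shares 31 exon bases with PUDP on the opposite strand, and the strand setting of the counting is not known here.

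Of the 5α-reductase family, SRD5A3 passed the test under ABBV-075, and SRD5A1 did not. SRD5A1 (ENSG00000145545, chr5:6633427-6674386, plus strand), the isoenzyme that reduces androstenedione in many prostate tumors, was measured at 1751 and 1845 normalized counts in GFP cells on DMSO and at 2237 and 2235 on ABBV-075. In HNF4G cells the values were 1706 and 1896 on DMSO and 2137 and 1938 on ABBV-075. The treated libraries were above the DMSO libraries in both lines, without overlap. The log2 difference in GFP cells was 0.32 ± 0.11 (95% interval 0.07 to 0.56), a fold of 1.24, and with an adjusted p of 0.052 (limma) it fell short of the threshold. In HNF4G cells it was 0.18 ± 0.11 (-0.07 to 0.42, adjusted p = 0.24), with values from 0.10, without HNF4G-DMSO number 1, to 0.29, with GC content and length corrected for as described below. Under ABBV-075 both HNF4G libraries were below both GFP libraries, with a log2 difference of -0.14 ± 0.11 (adjusted p = 0.58), and under DMSO the 2 lines overlapped.

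SRD5A3 was called lower with the drug in both lines, the 1 enzyme called in the fit over all 8 libraries. The log2 differences of STS were as large, and the enzymes were not tested against each other. The gene (ENSG00000128039, chr4:55346213-55373100, plus strand) belongs to the 5α-reductase family, and its established role is the reduction of polyprenol to dolichol, the lipid carrier of N-glycosylation. In GFP cells SRD5A3 went from 2250 and 2431 normalized counts with DMSO to 1692 and 1784 with ABBV-075. In HNF4G cells it went from 2443 and 2486 to 2085 and 1747. All 4 treated libraries were below all 4 DMSO libraries. The transcript fell by 0.43 on the log2 scale (SE 0.12, 95% interval -0.69 to -0.16, adjusted p = 0.023, limma) in GFP cells, 1.35-fold lower, and by 0.37 (SE 0.12, -0.63 to -0.10, adjusted p = 0.043) in HNF4G cells, 1.29-fold lower. The call in GFP cells was lost when any 1 of the 4 GFP libraries was left out. That in HNF4G cells was lost in 7 of the 8 such fits, and with edgeR and DESeq2. HNF4G and GFP cells differed by a log2 of 0.08 under DMSO and 0.13 under ABBV-075, with adjusted p of 0.77 and 0.61. SRD5A3 shares 1082 exon bases with its antisense gene SRD5A3-AS1, which had a mean of 90.9 normalized counts against 2115 for SRD5A3, and 1787 with a read-through gene not analysed here.

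**Figure D2:**
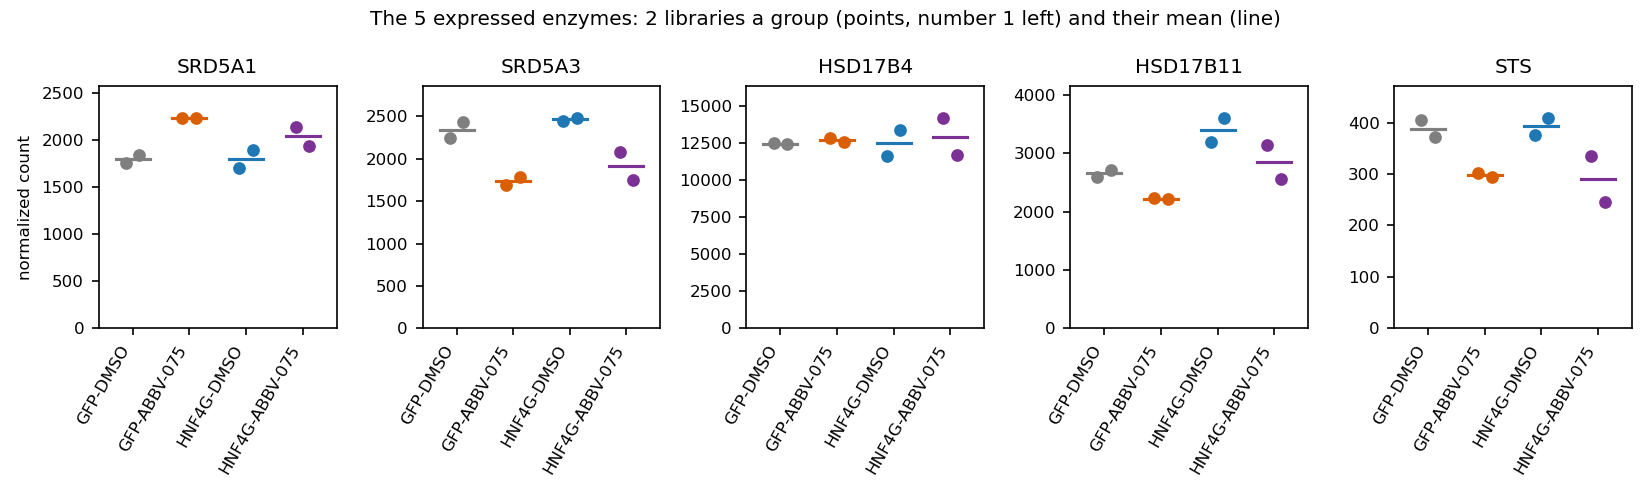
Normalized counts (vertical axis, from 0) of the 5 expressed enzymes in the 4 groups, with 1 point per library and a line at the mean of 2. SRD5A3 lies between 1692 and 2085 in the treated libraries and between 2250 and 2486 under DMSO, and HSD17B11 is higher in HNF4G cells than in GFP cells under the same treatment.

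HSD17B4 and HSD17B11, which oxidize androgens, were the most abundant of the group, while HSD17B2, which also does, had 0 reads in all 8 libraries. HSD17B4 (ENSG00000133835, chr5:119452465-119637199, plus strand) encodes a peroxisomal enzyme that oxidizes 17β-hydroxysteroids and also serves in fatty acid oxidation. GFP cells held 12471 and 12397 normalized counts of it with DMSO and 12802 and 12532 with ABBV-075, and HNF4G cells held 11582 and 13327 with DMSO and 14187 and 11641 with ABBV-075. Its GFP libraries lay close together, and the 2 libraries of each HNF4G group differed more from each other than the groups did. The log2 differences were 0.03 (95% interval -0.24 to 0.29) for the drug in GFP cells and 0.05 (-0.22 to 0.31) in HNF4G cells, so a change of more than 0.31 in either direction lay outside both intervals. HNF4G against GFP cells differed by 0.00 under DMSO and 0.02 under ABBV-075.

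HSD17B11 did not pass the test between the lines, although its HNF4G libraries lay above its GFP libraries under the same treatment. In this fit its difference between the lines was the largest of the 5 enzymes, while under ABBV-075 it was not without both low-GC libraries (0.20 against -0.28 for STS) or after the GC correction (0.33 against -0.34 for SRD5A1). Its product is found on lipid droplets and oxidizes 5α-androstanediol to androsterone. HSD17B11 (ENSG00000198189, chr4:87336515-87391188, minus strand) gave 2598 and 2720 normalized counts in GFP cells and 3191 and 3615 in HNF4G cells under DMSO. Under ABBV-075 the values were 2241 and 2212 in GFP cells and 3139 and 2557 in HNF4G cells. Both HNF4G libraries were above both GFP libraries under either treatment. The log2 difference between the lines was 0.35 ± 0.12 (95% interval 0.07 to 0.64, fold 1.28) under DMSO and 0.35 ± 0.12 (0.06 to 0.63, fold 1.27) under ABBV-075. The unadjusted p values were 0.022 and 0.023, and the adjusted ones of 0.32 and 0.25 (limma) did not pass the threshold. With the drug, HSD17B11 was lower without overlap in both lines, by a log2 difference of -0.26 ± 0.12 in each (adjusted p = 0.15 in both).

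Set against all genes, the share of the 5 enzymes that was called lay near the background. Of the 17876 genes tested with limma, 14.2% were called higher and 19.2% lower with ABBV-075 in GFP cells, and of the 5 enzymes 0 were higher and 1, SRD5A3, lower. In HNF4G cells 12.9% of genes were called higher and 18.3% lower, again against 0 and 1 of the 5. For HNF4G against GFP cells 0.783% of genes were called higher and 0.117% lower under DMSO, and 1.64% and 0.336% under ABBV-075, and 0 of the 5 enzymes were called in either. At an unadjusted p under 0.05 there was 1 enzyme, HSD17B11, in each of these 2 comparisons, and edgeR and DESeq2 called 0. In the interaction of transgene and drug 0.0112% of genes were called and 0 of the 5 enzymes, with 0 at an unadjusted p under 0.05 and 0 by edgeR and DESeq2. The interaction estimates ran from -0.14 for SRD5A1 (95% interval -0.48 to 0.21) to 0.06 for SRD5A3 (-0.32 to 0.44). The widest interval was that of STS, from -0.61 to 0.46. The median absolute log2 change of the 5 enzymes was 0.32 and 0.26 for the drug in GFP and HNF4G cells, against 0.37 and 0.36 over all genes. For HNF4G against GFP cells it was 0.02 under DMSO and 0.13 under ABBV-075, against 0.20 over all genes in both. The drug comparison and the transgene comparison that include the same group share its libraries, so their values are not independent.

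**Figure D3:**
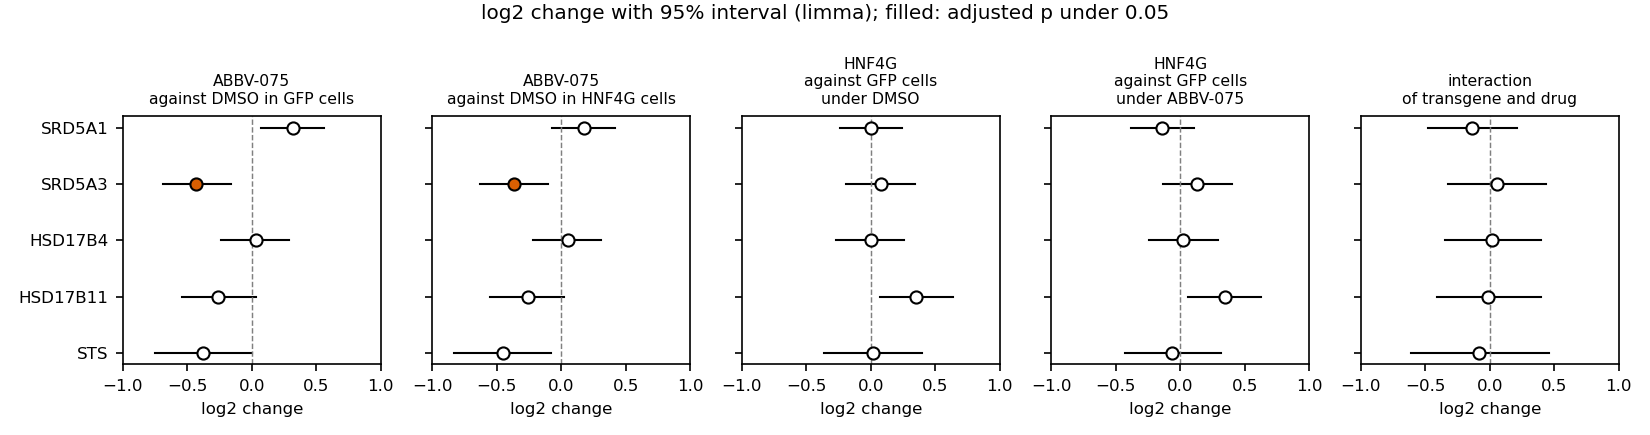
Log2 change (horizontal axis) of the 5 expressed enzymes in the 5 comparisons, with 95% intervals from limma. Filled points passed an adjusted p of 0.05, and they are SRD5A3 in both drug comparisons, at -0.43 and -0.37.

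All 5 enzymes were higher in the 2 libraries of low GC content than in their partners. In HNF4G-DMSO the low-GC library was above its partner by a log2 of 0.15 for SRD5A1, 0.03 for SRD5A3, 0.20 for HSD17B4, 0.18 for HSD17B11 and 0.12 for STS. In HNF4G-ABBV-075 the same difference was 0.14, 0.26, 0.29, 0.30 and 0.44. The enzymes' transcripts hold 36.4% GC for HSD17B4, 37.8% for HSD17B11, 42.7% for SRD5A1, 43.2% for SRD5A3 and 45.0% for STS. All tested genes under 40% GC had a median difference of 0.20 and 0.30 in these pairs, and those of 55% GC or more had -0.44 and -0.54. Averaged over the 2 pairs, genes near 43.75% GC had a median of 0.173 and those near 46.25% had 0.132. SRD5A1 (0.147) and SRD5A3 (0.140) lay below the first, and STS (0.281) lay above the upper quartile of the second, 0.230. In the GFP pairs no enzyme differed by more than 0.12 in size.

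**Figure D4:**
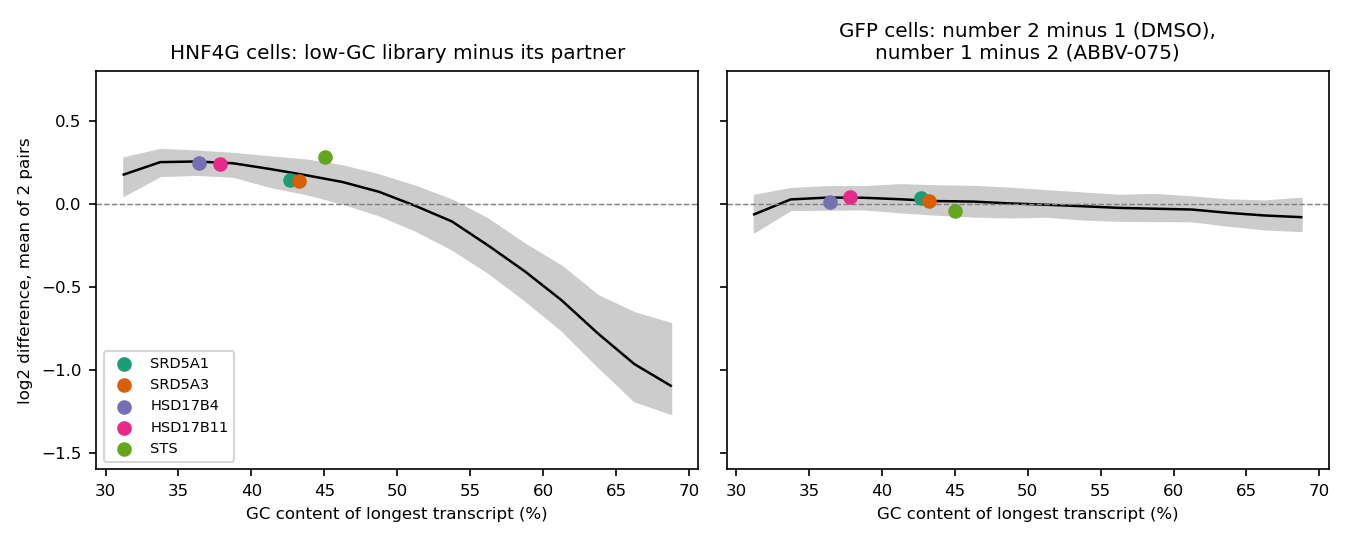
Log2 difference between the 2 libraries of a group (vertical axis, mean of 2 pairs) against transcript GC content in percent (horizontal axis), for HNF4G cells on the left and GFP cells on the right. The line is the median and the band the interquartile range of all tested genes, points are the 5 enzymes, and in HNF4G cells all 5 lie above 0.

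Without both low-GC libraries, a fit with 1 library per HNF4G group whose spread rests on the GFP pairs, SRD5A3 was lower with the drug in GFP cells by a log2 change of -0.43 (adjusted p = 2.2e-05, limma) and in HNF4G cells by -0.48 (adjusted p = 0.00029). The enzymes called were then 4 for the drug in GFP cells, where 60.1% of all genes were called, and 3 in HNF4G cells, where 47.6% were. The added calls were HSD17B11 and STS, both lower, in both lines, and SRD5A1, higher, in GFP cells. HSD17B11 was called higher in HNF4G than in GFP cells under DMSO (0.26, adjusted p = 0.024) and under ABBV-075 (0.20, adjusted p = 0.043), where 6.52% and 17.8% of genes were called.

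After removal of the trend with GC content and length from each library, HSD17B11 was called in all 4 comparisons of groups. It was higher in HNF4G cells by 0.28 under DMSO (adjusted p = 0.01, limma) and by 0.33 under ABBV-075 (adjusted p = 0.0029). With the drug it was lower in GFP cells by a log2 change of -0.25 (adjusted p = 0.002) and in HNF4G cells by -0.20 (adjusted p = 0.007). SRD5A1 was higher with the drug by 0.44 in GFP cells (adjusted p = 9.7e-05) and by 0.29 in HNF4G cells (adjusted p = 0.0013). SRD5A3 was lower, at -0.30 and -0.22 (adjusted p = 0.0021 and 0.011). STS was called in HNF4G cells, at -0.33 (adjusted p = 0.028). Under ABBV-075, SRD5A1 was lower in HNF4G than in GFP cells by a log2 change of -0.34 (adjusted p = 0.0037), and under DMSO HSD17B4 was, by -0.21 (adjusted p = 0.047). Of all genes, 57.1% and 56.1% were called for the drug in GFP and HNF4G cells and 8.63% and 14.6% for HNF4G against GFP cells under DMSO and ABBV-075.

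SRD5A3 was called with the drug in the fit over all 8 libraries. SRD5A1 and HSD17B11, like STS, were called only in some alternatives. The 250 bases before the start of SRD5A3, SRD5A1 and HSD17B11 are shown, without those of STS. They are RefSeq promoters of GRCh38.p14, whose start can lie inside the gene span given above, as it does for SRD5A3 and SRD5A1, read from 5′ to 3′ along the gene, and capitals mark the E-box CACGTG, the palindromic site of MYC and related factors.
SRD5A3, chr4:55345992-55346241, plus strand: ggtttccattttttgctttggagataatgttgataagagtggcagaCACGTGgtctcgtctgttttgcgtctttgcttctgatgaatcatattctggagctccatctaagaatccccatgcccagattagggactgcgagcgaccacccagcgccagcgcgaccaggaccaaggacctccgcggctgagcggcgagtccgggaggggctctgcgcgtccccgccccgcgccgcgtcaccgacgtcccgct
SRD5A1, chr5:6633190-6633439, plus strand: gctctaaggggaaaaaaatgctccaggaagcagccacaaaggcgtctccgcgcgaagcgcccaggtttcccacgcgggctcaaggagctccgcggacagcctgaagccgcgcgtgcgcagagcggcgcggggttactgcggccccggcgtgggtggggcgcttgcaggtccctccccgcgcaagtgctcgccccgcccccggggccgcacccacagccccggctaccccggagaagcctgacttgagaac
HSD17B11, chr4:87391189-87391438, minus strand: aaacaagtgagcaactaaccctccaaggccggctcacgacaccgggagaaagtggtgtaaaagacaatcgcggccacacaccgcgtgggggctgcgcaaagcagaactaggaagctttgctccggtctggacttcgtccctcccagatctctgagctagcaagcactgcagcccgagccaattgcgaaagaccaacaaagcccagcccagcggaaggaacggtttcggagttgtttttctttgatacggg
The GC content of these windows was 59.6%, 70.8% and 56.0%. RefSeq promoters were matched for 9 of the 10 genes, HSD17B2 excepted, in 14 windows. On both strands, CACGTG was found in 1 of the 14, at position -204 of SRD5A3, and in 6.34% of the 35116 windows of all genes. The HNF4 site CAAAGTCCA was in 0 of the 14 and in 0.325% of all windows. The GC box GGGCGG was in windows of SRD5A1, SRD5A2, SRD5A3 and HSD17B4 and in 42.6% of all windows. None of the 3 motifs contains another, and a match is a description of the letters only.

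The rest of the steroid pathway moved most in the list of glucuronidation genes, some of which conjugate androgens for export. Which of them act on androgens in these cells was not tested. A list of 50 other pathway genes held 36 that were tested. With ABBV-075, 11 were lower and 1 higher in GFP cells (median log2 change -0.38), and 13 lower and 1 higher in HNF4G cells (median -0.29), while the median of all genes was -0.007 and 0.020. Of all genes, 19.2% and 18.3% were called lower in these comparisons and 14.2% and 12.9% higher. For HNF4G against GFP cells 6 were higher and 0 lower under DMSO (median 0.21), and 8 higher and 0 lower under ABBV-075 (median 0.19), and the median of all genes was 0.002 in both. Over all genes the shares called higher were 0.783% and 1.64%, and lower 0.117% and 0.336%. In the interaction 0 of the 36 were called by limma, edgeR or DESeq2, and 2 had an unadjusted p under 0.05 in limma. Without both low-GC libraries, 1 library was left per HNF4G group. The medians of the 36 were then -0.38 and -0.27 for the drug in GFP and HNF4G cells. For the transgene they were 0.18 under DMSO and 0.27 under ABBV-075.

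Of 8 glucuronidation genes 7 were tested, and 4 were lower with the drug in GFP cells and 6 in HNF4G cells, with median log2 changes of -2.29 and -2.92. Of all genes, 19.2% and 18.3% were lower. For HNF4G against GFP cells 3 were higher and 0 lower under either treatment. Of all genes, 0.783% were higher under DMSO and 1.64% under ABBV-075. Without both low-GC libraries the medians were -2.29 and -2.89 for the drug in GFP and HNF4G cells. For the transgene they were 1.95 under DMSO and 1.00 under ABBV-075, against 2.05 and 1.47 with all libraries. UGT2B15, whose enzyme conjugates dihydrotestosterone, went from 1074 and 1169 normalized counts with DMSO to 161 and 158 with ABBV-075 in GFP cells, and from 4334 and 5190 to 758 and 625 in HNF4G cells. It fell in both lines, by 2.81 on the log2 scale in GFP cells (adjusted p = 2.2e-05), and was higher in HNF4G than in GFP cells by 2.08 under DMSO and 2.10 under ABBV-075. The UGT2B10 gene of the same cluster went from 184 and 170 to 15.4 and 6.92 in GFP cells, and from 826 and 897 to 79.6 and 73.1 in HNF4G cells. Its log2 changes with the drug were -3.96 ± 0.30 and -3.48 ± 0.30, and between the lines 2.28 and 2.76. UGT2B4 changed by -3.37 in GFP cells, and UGT2B7 by -3.33 ± 0.74 and UGT2B17 by -3.01 ± 0.85 in HNF4G cells. In HNF4G-ABBV-075 the latter 2 genes were near the floor, with 13 recovered reads each. Their normalized counts there were 11.6 and 1.03 for UGT2B7 and 8.74 and 4.12 for UGT2B17. The UGT2B genes are related copies, some of them close, so the split of reads between close copies is uncertain.

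Among 17 other 17β- and 3α-steroid dehydrogenases, 15 were tested, and 4 and 5 were lower with the drug in GFP and HNF4G cells, where 19.2% and 18.3% of all genes were. For HNF4G against GFP cells, 3 and 4 were higher under DMSO and ABBV-075, where 0.783% and 1.64% of all genes were. AKR1C1, which inactivates progesterone and reduces 3-ketosteroids, went from 219 and 185 normalized counts with DMSO to 51.8 and 35.8 with ABBV-075 in GFP cells, and from 834 and 739 to 228 and 204 in HNF4G cells. It was higher in HNF4G cells by 1.96 ± 0.20 and 2.30 ± 0.20 on the log2 scale. Its paralog AKR1C3, which makes testosterone and was singled out after its values were seen, went from 2613 and 2427 to 627 and 666 in GFP cells, and from 5057 and 5133 to 2371 and 2148 in HNF4G cells. AKR1C3 was called lower with the drug and higher with HNF4G in all 4 comparisons. The AKR1C genes too are related copies, some of them close. HSD17B3, the testicular enzyme of the step that AKR1C3 also carries out, gave at most 8 reads in any library.

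Of 8 genes of substrate supply 5 were tested, and CYP11A1, the first enzyme of steroid synthesis, was at 0 in all libraries. The 2 lower with the drug in GFP cells were CYB5A (-0.37) and FDX1 (-0.39), and 0 were called in HNF4G cells by limma, edgeR or DESeq2, where 2 had an unadjusted p under 0.05 in limma. Of all genes, 19.2% were lower with the drug in GFP cells and 18.3% in HNF4G cells. In HNF4G cells 2 were called higher and 2 lower without both low-GC libraries, and 2 higher and 1 lower after the GC correction. CYB5A was higher in HNF4G than in GFP cells under ABBV-075 (0.53). Of 7 genes of sulfation and sulfatase maturation 5 were tested, and PAPSS2 was lower with the drug in both lines (-0.80 and -1.34) and SULT2B1 in HNF4G cells (-1.90). Without both low-GC libraries 3 of the 5 were lower and 1 higher with the drug in GFP cells and 4 lower in HNF4G cells. These 4 genes were named after their values were seen. In the branches to oestrogen and glucocorticoids 2 of 7 were tested and 0 called in any comparison by limma, edgeR or DESeq2, with at most 1 at an unadjusted p under 0.05. Without both low-GC libraries limma called 2 lower with the drug in GFP cells, 1 lower in HNF4G cells and 1 higher in HNF4G than in GFP cells under ABBV-075, and after the GC correction it called 1 in each of these 3 comparisons in the same directions. TECR, a fatty acid elongation enzyme related to the 5α-reductases, was higher with the drug by 0.77 and 0.78, with a split of 5419 and 3354 normalized counts between the libraries of HNF4G-DMSO.

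Across the 8 libraries, the genes whose log2 levels were most like those of the 3 enzymes that varied most were ranked by Pearson r over 13100 genes with a mean of at least 50. Most like SRD5A3 were SP2-AS1 (r = 0.992), MECOM (0.989) and FRMD4A (0.989), and 570 genes had an r above 0.95. For HSD17B11 they were B4GALT5 (0.994), PLOD2 (0.993) and SGMS2 (0.993), with 177 above 0.95, and for STS they were NASP (0.992), OCIAD1 (0.991) and ILF2 (0.988), with 193. All points share the 4 groups and the 2 libraries of low GC content, so these values are a description of 8 libraries.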

How the data were processed

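Poly-A RNA from 22Rv1 cells was sequenced from paired ends in 8 libraries, and titles gave the groups. The authors aligned reads, per the labels and the methods, to hg38 with STAR, version 2.6 in the submitters' processing notes, while the methods name another version. The deposited signal is a normalized count, reads divided by 1 size factor per library, not scaled by length. The methods state log2 TPM from edgeR, a different unit. How genes were counted, with what strand setting and annotation, and where the size factors came from are not given in the sources used here. Whole reads were recovered by dividing by each library's step: 100% of those above 0 came within 0.01 of an integer. With no spike-in used here, a shift of total RNA per cell is invisible.

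The table held 57605 entries, and 2 that repeated an identifier were dropped. The 17876 genes with a mean of at least 10 were fitted with limma 3.58.1 (R 4.3.3, intensity trend) on log2(normalized count + 1), as 4 group means over all 8 libraries, in 5 two-sided contrasts with Benjamini-Hochberg adjustment over all genes. Calls were made at an adjusted p under 0.05. Changes on this scale understate those of low genes. Levels per kb used the MANE Select transcript, and GC content and length the longest GENCODE 44 transcript. The alternatives were pseudocounts, filters, scalings, a replicate block, fewer libraries, edgeR 4.0.16 and DESeq2 1.42.0 (both run on recovered reads), and each library left out. A correction for GC content and length, a crossed block and the fit without both low-GC libraries were added after seeing the data. The 10 genes, the pathway and marker lists and the tests were chosen with earlier results of these data known. Named beside the 10 were up to 3 called pathway genes per direction and comparison with the largest change, HNF4G as a check, and the 3 genes most like each of the 3 enzymes that varied most. LUM, ALB, PUDP and SRD5A3-AS1, and the pathway genes marked so in the text, were named after their values were seen. Some genes and motifs are not reported here singly, while counts over lists hold every tested member.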

Additional observations from a re-analysis of the deposited data

How the results depend on the processing

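Of 570 log2 changes of the enzymes under an alternative, 513 kept their direction or stayed uncalled on the same side of the threshold, 18 lost a call, 39 gained one and 0 called values changed sign, while 39 that were uncalled in both settings had the opposite sign. For the drug in GFP cells 1 enzyme was called, and 2 were called with no filter (SRD5A3, and SRD5A2 on 9 reads in all), with a mean of at least 100, after median-of-ratios, trimmed means or quantile scaling and with edgeR (SRD5A1 and SRD5A3 in each). The count was 4 with only the libraries compared, where 10750 of 17876 genes were called, and 0 to 3 when 1 library was left out, with 0 without any 1 of the 4 GFP libraries (2915 to 3067 genes) and 3 without either HNF4G-ABBV-075 library (7440 and 7469 genes). For the drug in HNF4G cells 1 was called, and 0 with no filter, trimmed means, only the libraries compared, edgeR and DESeq2. It was 0 to 3 when 1 library was left out, 3 without HNF4G-ABBV-075 number 1 (HSD17B11, SRD5A3 and STS, with 6298 genes in all) and 0 without any other. A library left alone in its group is assumed to vary like the others. For alternatives without a number of genes beside them, the count of enzymes cannot be set against the background.

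SRD5A3 was called with the drug in 18 of 23 alternatives in GFP cells (log2 change -0.48 to -0.30, adjusted p 1.8e-05 to 0.16, limma, edgeR or DESeq2) and in 10 of 23 in HNF4G cells (-0.50 to -0.22, adjusted p 0.00029 to 0.2). SRD5A1 was called in 12 of 23 in GFP cells (0.28 to 0.44) and in 2 of 23 in HNF4G cells (0.10 to 0.29), and STS in 4 of 23 in each line (-0.44 to -0.21 and -0.67 to -0.23). HSD17B11 was called between the lines in 3 of 23 under each treatment, at 0.26 to 0.44 and 0.20 to 0.50. Without both low-GC libraries the counts were 4, 3, 1 and 1 for the drug in GFP cells, the drug in HNF4G cells, and the transgene under DMSO and ABBV-075, and with the GC content and length correction they were 3, 4, 2 and 2. The cause of these differences was not tested.

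The numbers 1 and 2 of the labels showed no clear pairing of the libraries. The correlation of deviations across genes was -0.05 between the GFP groups and -0.59 between the HNF4G groups. Between the lines it was 0.13 under DMSO and 0.05 under ABBV-075. The low-GC libraries carry opposite numbers in the HNF4G groups, so the value there cannot decide whether the numbers pair. With the number as a replicate block, 0 enzymes were called for the drug in either line and 4708 and 4307 genes in all, against 5966 and 5575 without the block. With the block and the GC correction together, 3 and 4 enzymes were called for the drug in GFP and HNF4G cells, and 1 and 2 for the transgene under DMSO and ABBV-075, where 9657, 9502, 778 and 1685 of 17861 genes were. A crossed block, numbers of HNF4G-ABBV-075 swapped, called 2 enzymes for the drug in GFP cells and 1 in HNF4G cells, and 6758 and 6446 genes in all. Over all genes, the transgene comparison under DMSO called 161 by limma, 275 by DESeq2 and 72 with the block, and under ABBV-075 it called 353, 401 and 168. Depth limits the 5 enzymes near 0 reads, where a count of 0 allows 0.0745 to 0.0952 CPM.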
